A study of Ovis aries with 16 samples.

Results

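The change after Fontan surgery in how circulating microRNAs (miRNAs) divide between extracellular vesicles (EVs) and serum was measured in sheep, from libraries of EVs and of serum that carry the same letter and the same time. For each such pair the measure was the log2 ratio of a name's share of counts in EVs to its share in serum, so that a ratio of 0 is an equal share in both. Both fractions were there for 8 pairs, 5 before surgery (letters A to E) and 3 after it (letters D to F), and together they used 16 of the 16 libraries of the study. Ratios were taken for the 375 of 1105 names in the count table with at least 1 count in every library, of which 362 were miRNA names and 13 were names of Piwi-interacting RNAs (piRNAs). The other 730 names were at 0 in at least 1 library and have no ratio in every pair.

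EVs are membrane-enclosed particles that cells release into blood. They carry small RNAs of the releasing cell, while much of the miRNA in serum lies outside vesicles, bound to Argonaute proteins or lipoproteins. Which miRNAs are found in vesicles differs from which are found in serum as a whole, and red blood cells, platelets, endothelium and liver are all known sources of both. The Fontan operation joins the systemic veins to the pulmonary arteries, so that blood reaches the lungs without a pumping ventricle, and it raises venous pressure, to which the liver and the vessel wall are exposed.

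The animals were adolescent sheep with a normal heart of 2 ventricles, operated in 1 stage. The groups were serum before surgery and EVs before surgery (letters A to E, labelled as control), and serum after surgery and EVs after surgery (letter D on day 6, letters E and F on day 7). Letters were read as animals, so D and E were sampled at both times, and A, B, C and F at one time each. EVs came from a size-exclusion column that collects particles of 70 to 1000 nm, and the labels do not say that vesicles were removed from the serum samples. Every library started from 1 ng of RNA, so shares and ratios describe the composition of each fraction and not an amount per volume of blood. In such bulk samples, fewer releasing cells and less RNA per cell cannot be told apart.

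Library totals ran from 65537 to 639207 counts, and the 375 names held 75.7% to 98.2% of them. Counting error was small beside the differences between animals. The standard error that counting alone gives to a log2 ratio of a name reported here had a median of 0.119 and reached 1.48, and the half-width of the Wilson 95% interval of a single share was 0.275 percentage points or less. Both cover the error of counting alone, as PCR copies of a read are not separate molecules. Nothing in the labels says more on how the samples relate, so the p-values rest on the spread among these samples, part of which may be technical.

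Some libraries stood apart. The names at 0 fell into 8 sets of libraries that share nearly all of their zeros (phi coefficients of 0.895 or more inside a set, and of 0.483 or less across sets), and 12 of the 16 libraries shared a set with another one. The pair of animal B before surgery and the pairs of animals E and F after it lay in the same EV set and the same serum set, as did the pairs of animals A and E before surgery. The pairs of animal C before surgery and of animal D at both times shared both sets with no other pair. What made these sets is not given in the sources used here. Fitted on the 3 pairs in the same sets alone, edgeR called 0 names, with 15 at an unadjusted p under 0.05.

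Most names had a larger share in EV libraries than in serum libraries in 7 of the 8 pairs. In these 7 pairs the EV library also had the lower total. The median log2 ratio over the 375 names was 1.42, 2.04, 1.16, −0.62 and 1.48 in animals A, B, C, D and E before surgery, and 0.50, 0.65 and 1.42 in animals D, E and F after it. Animal D before surgery was the one pair with a negative median, and the values after surgery lay inside the range before it. The number of names with a larger share in EVs was 301, 297, 310, 127 and 303 of 375 before and 236, 257 and 295 after surgery, in the same order of animals. In the third of names with the highest mean share the medians were 0.263, 0.362, 0.573, 0.218 and 0.542 before and 0.991, 0.529 and 0.225 after. In the third with the lowest they were 2.17, 2.39, 1.44, −1.02 and 1.81 before and 0.1, 0.8 and 1.77 after. Whether library totals bear on these ratios was not tested.

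**Figure D1:**
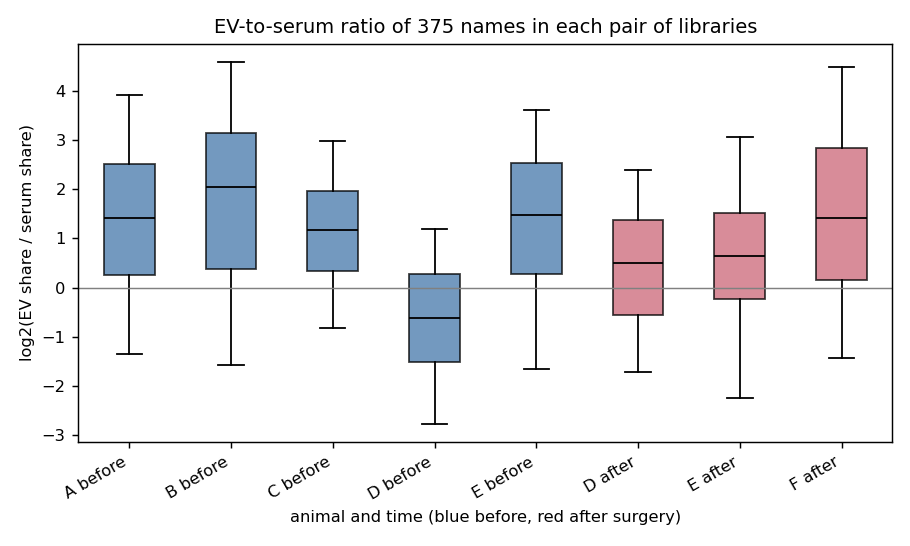
Log2 ratio of EV share to serum share (y axis) over 375 names in each of 8 pairs of libraries (x axis, blue before and red after surgery); the line is the median, the box the middle 50% of names and the whiskers the 5th and 95th percentile. The 3 medians after surgery, 0.50, 0.65 and 1.42, lie between the medians of animal D (−0.62) and animal B (2.04) before surgery.

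No shift of the whole profile was detectable after surgery. The mean of the medians was 1.10 ± 1.01 (SD, n = 5) before and 0.855 ± 0.495 (SD, n = 3) after surgery, a difference of −0.24 (exact permutation test, 2-sided, p = 0.679). The spread of the log2 ratio over names, its SD, was 1.67, 1.96, 1.20, 1.27 and 1.72 before and 1.32, 1.58 and 1.78 after surgery, a difference of means of −0.0053 (exact permutation test, 2-sided, p = 1). Spearman's correlation of EV shares with serum shares was 0.538, 0.470, 0.793, 0.600 and 0.499 before and 0.689, 0.555 and 0.443 after surgery, a difference of −0.017 (exact permutation test, 2-sided, p = 0.857). Adjusted over these 3 tests each p was 1, and the smallest p that 3 pairs against 5 can give is 0.0357. The tests took the pairs as independent, although animals D and E each gave a pair at both times.

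The 2 animals sampled at both times moved in opposite directions. The median log2 ratio went from −0.62 to 0.50 in animal D and went from 1.48 to 0.65 in animal E. In animal D the serum profile moved more than the EV profile, with a median change over names in log2 share of −2.28 in serum and −0.96 in EVs. In animal E it was the EV profile, with −0.94 in EVs and −0.18 in serum. These are single animals, so no test was made of the change within either. The direction of the group difference in the median turned when the change was taken within animals D and E alone, to 0.14.

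The ratios of animal D before surgery ran against those of the other animals. Across the 375 names, their Pearson correlation with the other 4 pairs before surgery ran from −0.47 (animal B) to −0.17 (animal C), whereas the pairs of animals A, B, C and E before surgery correlated with each other at 0.45 to 0.60. Names are not independent replicates, and pairs of 1 animal share that animal, so these values are descriptions. The times of animal E correlated at 0.56. For animal D the value was 0.32, its highest with any pair, while D after surgery correlated at −0.10 to 0.13 with the remaining 6 pairs. The pair of animal D before surgery was also the only one with a larger total in EVs (276696) than in serum (76988). Its serum library held 78.2% of its counts in the 375 names, beside 94.7% to 98.2% in the other serum libraries. Whether these differences between libraries bear on its ratios was not tested.

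**Figure D2:**
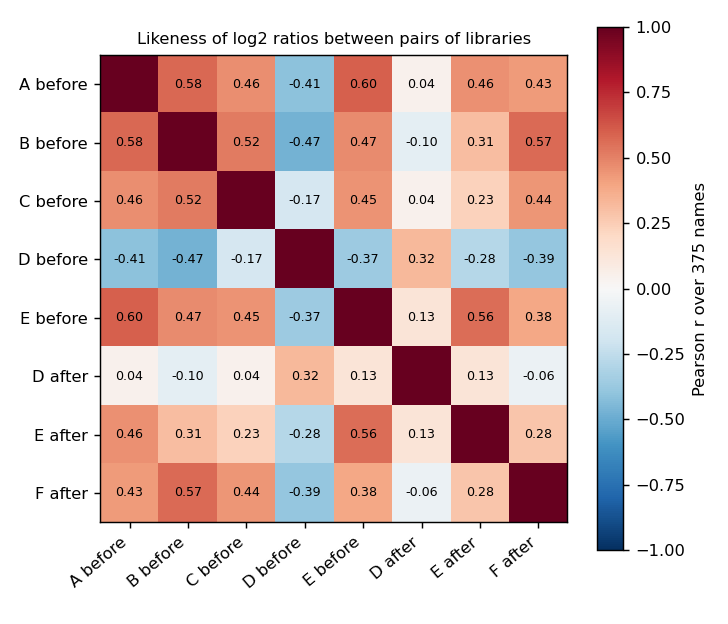
Pearson correlation over 375 names of the log2 EV-to-serum ratio between each 2 of the 8 pairs (colour scale from −1 to 1, rows and columns are animals and times). Animal D before surgery is negative with every pair but D after surgery (0.32), and E before with E after surgery stands at 0.56.

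Name by name, no ratio changed past the threshold. edgeR's quasi-likelihood test, fitted over all 16 libraries with a term for each pair and library totals as sizes, called 0% of the 375 names higher and 0% lower at a Benjamini-Hochberg adjusted p of 0.05, and the smallest adjusted p was 0.998. At an unadjusted p of 0.05 it marked 4 names, 2 higher and 2 lower, where 18.75 would be marked by chance alone. The median standard error of the log2 change over names was 1.15, which limits what 3 pairs against 5 can show. DESeq2 called 0 names with 23 at an unadjusted p under 0.05, limma-voom 0 with 9 and limma on the 8 log2 ratios 0 with 7. Leaving out animal D before surgery brought 24 names under an unadjusted p of 0.05, with a smallest adjusted p of 0.62. Every adjusted p by edgeR was 0.998 or more, so none of the differences described below passed the test. Over all alternatives, the adjusted p of the 69 miRNA and piRNA names singled out here, by abundance, position outside the earlier range, p or list, ran from 0.483 to 1.

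The scale on which shares are compared moves all names together. Against library totals, TMM factors raise the difference of means of every name by 0.24 on the log2 scale, RLE factors by 0.16, and centring each pair on its own median by 0.24. With library totals the median difference over the 375 names was −0.14, with 160 names higher after surgery and 215 lower. Centring turned the median to 0.11, with 204 names higher.

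For 10 names, all 3 ratios after surgery lay outside the range of the 5 before it, 5 above (1.33% of 375) and 5 below (1.33%). If the labels of time were random and the pairs independent, a name would lie outside, in either direction, with a probability of 0.0357. The count of 10 is no larger than such labels would give. Animals D and E gave a pair at both times, so the pairs are not independent and this comparison is approximate. The names above were the miRNAs miR-27b-3p, miR-27a-3p and miR-148a-3p and the piRNA names piR_004987 and piR_017724. The names below were miR-4322, miR-935, miR-1469, miR-6756-3p and miR-1265. The choice of these names fixes the sign of their differences within animals D and E. Centred on each pair's median, piR_004987, miR-27b-3p, miR-148a-3p and miR-27a-3p were lower within animal D, by −0.54, −0.43, −0.29 and −0.15, and higher within animal E. The count was 20 without animal A before surgery, 29 without D before, 29 without D after, 20 without E after and 33 without F after surgery, since fewer pairs are easier to separate. With the ratios centred on each pair's median 10 names again lay outside, of which only miR-1265 was also among those above.

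miR-27b-3p and miR-27a-3p, which are made from the clusters of miR-23, miR-24 and miR-27 and are known regulators of fat metabolism and vessel growth, were both more weighted to vesicles after surgery. The log2 ratio of miR-27b-3p was 0.48, 0.83, 1.08, 0.45 and 1.06 in animals A, B, C, D and E before surgery and 1.13, 2.52 and 2.21 in animals D, E and F after it. Its lowest value after surgery, in animal D, lay just above its highest before, in animal C. Its share of EV counts was 0.284, 0.175, 0.264, 0.442 and 0.329% before and 0.134, 0.353 and 0.344% after surgery, and its share of serum counts was 0.204, 0.0986, 0.125, 0.323 and 0.157% before and 0.061, 0.0617 and 0.0744% after. The serum shares after surgery were thus all below every serum share before, while the EV shares overlapped. The fitted log2 change of the ratio was 1.17 ± 0.64 (SE; edgeR, unadjusted p = 0.0871), with 0.68 within animal D and 1.45 within animal E.

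For miR-27a-3p the log2 ratio was 1.39, 0.87, 1.51, 0.62 and 0.081 before and 1.59, 1.58 and 1.55 after surgery, in the same order of animals. The values after surgery were nearly equal, and their margin over animal C before surgery was small. Its fitted log2 change was 0.67 ± 0.77 (SE; edgeR, unadjusted p = 0.398). The partners from the same clusters overlapped between the times. miR-24-3p, which is also abundant in platelets, had log2 ratios of 0.57, 0.52, 0.78, 0.82 and 0.22 before and 0.81, 1.36 and 1.64 after surgery, so that animal D after surgery was just below animal D before it. miR-23a-3p and miR-23b-3p were chosen after their values were seen. The log2 ratio of miR-23a-3p was 0.44, −1.17, 0.61, 0.28 and 0.56 before and 1.33, 1.11 and −0.53 after surgery, and that of miR-23b-3p was 0.22, −1.78, 1.23, 0.99 and 1.29 before and 1.17, 1.48 and −0.81 after surgery. In both, animal F after surgery was below 0 while animals D and E were above 1.

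miR-148a-3p, an abundant miRNA of liver and of B cells that acts on cholesterol uptake, had log2 ratios of −0.84, 0.036, 0.59, 0.82 and 0.69 before and 1.65, 1.30 and 0.84 after surgery. All 5 values before surgery were below all 3 after it, with animal D before (0.82) and animal F after (0.84) at the edge. Its serum share was 0.282, 0.22, 0.114, 0.191 and 0.194% before and 0.0537, 0.172 and 0.172% after surgery, and its EV share 0.158, 0.226, 0.171, 0.338 and 0.315% before and 0.169, 0.422 and 0.308% after. Each fraction alone overlapped between the times. Its fitted log2 change was 0.99 ± 0.66 (SE; edgeR, unadjusted p = 0.152).

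piR_004987 had the smallest p of the fit. Its log2 ratio was −0.68, −1.36, −2.01, −0.091 and −2.13 before and 0.48, 0.81 and 1.33 after surgery, which is below 0 in all 5 pairs before surgery and above 0 in all 3 after it. Its serum share was 0.759, 0.317, 0.465, 0.226 and 0.796% before and 0.0736, 0.128 and 0.15% after surgery, with every value after below every value before. Its EV share was 0.476, 0.124, 0.115, 0.212 and 0.181% and 0.103, 0.225 and 0.378%, which overlapped. The choice of this name by its ratio partly fixes its low serum shares, as for miR-27b-3p. The fitted log2 change was 2.13 ± 0.68 (SE; edgeR, unadjusted p = 0.00719), with 0.57 within animal D and 2.95 within animal E.

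piR_017724 had log2 ratios of −4.05, −1.01, −1.25, −1.43 and −0.41 before and 0.81, −0.037 and −0.074 after surgery. Animal A before surgery lay far below the others, on an EV count of 3, and animals E and F after surgery were close to 0. Here the EV share differed more than the serum share, from 0.00442, 0.0168, 0.0189, 0.0202 and 0.0527% before to 0.093, 0.0562 and 0.0409% after surgery. Animals D and E after surgery were above all 5 earlier values and animal F was not, while the serum shares overlapped. piRNAs guide Piwi proteins against transposons in the germ line. Names of this kind in a table matched to human entries may hold fragments of other RNAs, and neither name was checked against sheep sequence.

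**Figure D3:**
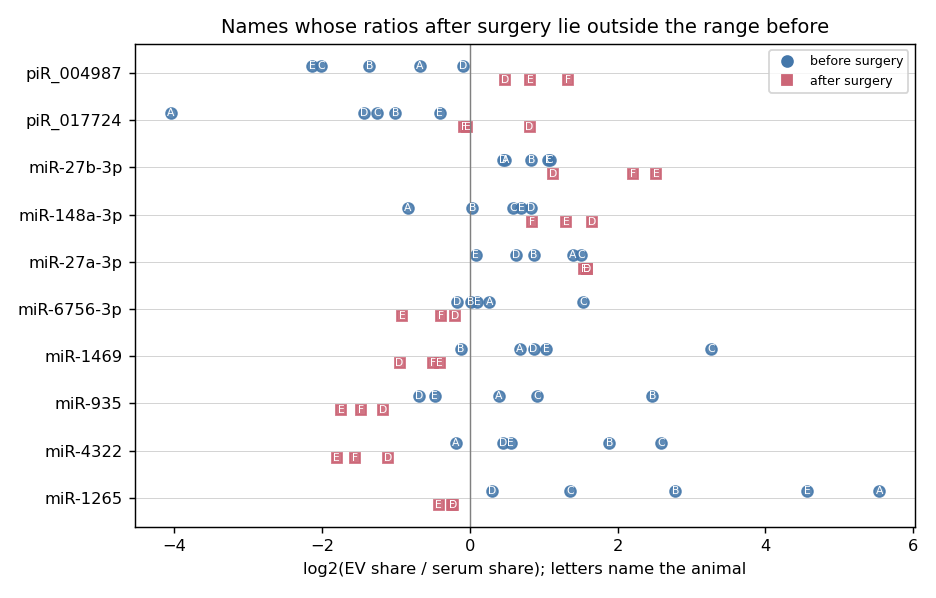
Log2 ratio of EV share to serum share (x axis) for the 10 names whose 3 values after surgery (red squares) lie outside the range of the 5 before (blue circles); letters name the animals. piR_004987 goes from −2.13 to −0.091 before to 0.48 to 1.33 after surgery, and miR-4322 from −0.19 to 2.59 before to −1.80 to −1.11 after.

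No role is given here for the 5 names that lay below their earlier range. miR-4322 had log2 ratios of −0.19, 1.89, 2.59, 0.45 and 0.55 before and −1.11, −1.80 and −1.56 after surgery. All 3 values after surgery were well below the lowest before it, that of animal A. Its EV share was 0.0678, 0.0595, 0.033, 0.0907 and 0.0573% before and 0.0388, 0.0156 and 0.0259% after surgery, and its serum share 0.0772, 0.0161, 0.00548, 0.0662 and 0.0391% and 0.0838, 0.0543 and 0.0763%. Its fitted log2 change was −2.52 ± 0.95 (SE; edgeR, unadjusted p = 0.0188), with −1.56 within animal D and −2.35 within animal E.

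miR-935 had log2 ratios of 0.39, 2.47, 0.91, −0.68 and −0.47 before and −1.17, −1.74 and −1.47 after surgery, with the 3 animals after surgery close together and animal D before surgery nearest to them. miR-1469 had log2 ratios of 0.68, −0.12, 3.26, 0.86 and 1.03 before and −0.95, −0.41 and −0.50 after surgery, with animal C before surgery far above the others and animal B before surgery close to the values after. miR-6756-3p, the most abundant of the 5, had log2 ratios of 0.26, 0.012, 1.53, −0.17 and 0.098 before and −0.20, −0.92 and −0.39 after surgery. Animal D hardly moved in miR-6756-3p, by −0.034. miR-1265 had log2 ratios of 5.54, 2.78, 1.36, 0.30 and 4.57 before and −0.22, −0.42 and −0.24 after surgery, and the values after surgery differed from each other by less than in any other of the 10 names but miR-27a-3p. Its counts were low, 20, 35, 82, 53 and 52 in EVs and 1, 43, 36, 12 and 4 in serum before surgery, so that its highest ratio, in animal A, rests on 1 serum count. After surgery the counts were 40, 21 and 6 in EVs and 51, 31 and 20 in serum.

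The other names with the smallest p in each direction overlapped between the times. miR-140-3p, a miRNA of cartilage that also circulates in blood, had log2 ratios of −0.92, −4.64, −1.10, 0.14 and −0.99 before and 1.97, 1.0 and −0.065 after surgery. Animal B before surgery lay far below the rest, and animal F after surgery lay below animal D before it. Its fitted log2 change was 2.31 ± 0.97 (SE; edgeR, unadjusted p = 0.0322), with 1.83 within animal D and 2.0 within animal E. miR-221-3p, a miRNA of vessel-wall cells that acts on the receptor KIT, had log2 ratios of 1.07, −0.11, 0.54, 0.80 and 0.55 before and 2.79, 1.91 and 0.97 after surgery. Animal F after surgery was the only one of the 3 within the earlier range, below animal A. Its EV share was 0.769, 0.336, 0.755, 0.827 and 0.544% before and 1.17, 0.682 and 0.525% after surgery, and its serum share 0.366, 0.363, 0.518, 0.474 and 0.372% and 0.169, 0.182 and 0.267%. The serum shares after surgery were all below the 5 before it, which the choice of miR-221-3p by its ratio partly fixes. Its fitted log2 change was 1.32 ± 0.62 (SE; edgeR, unadjusted p = 0.0524). miR-222-3p, of the same endothelial list and chosen after its values were seen, went the other way. It had log2 ratios of 1.38, 1.11, 0.94, 2.0 and 0.91 before and 1.74, −0.12 and −0.91 after surgery, with −0.26 within animal D and −1.03 within animal E. Among the lower names, miR-7114-3p had log2 ratios of −0.28, 1.81, 1.55, 0.36 and 0.27 before and −1.89, −1.59 and −0.0092 after surgery. miR-6780b-3p had log2 ratios of 1.47, 3.03, 0.77, −1.72 and 2.97 before and 0.13, −1.20 and −2.24 after surgery, with animal D moving up by 1.85 and animal E moving by −4.17. Both overlapped, through animal F in the first and through animals D and E in the second.

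Within animals D and E the names went in opposite directions more often than in the same one. The ratio was higher after surgery for 280 of 375 names in animal D and for 117 in animal E, with median changes of 1.08 and −0.71. Both animals were higher for 86 names, both were lower for 64, and 225 went opposite ways. Centred on each pair's median, 182 and 202 names were higher, and 222 went opposite ways. The Pearson correlation of the 2 changes over names was −0.11.

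A change above 1 on the log2 scale in both animals was found for 23 names (6.13% of 375) and one below −1 in both for 13 (3.47%). With the ratios centred these counts were 21 and 12, and on libraries thinned to the lowest total both directions together gave 23 in place of 36. Of the 23 higher names, those with the most counts were miR-451a, miR-221-3p, miR-140-3p, miR-320b, miR-15b-5p, miR-320c and miR-101-3p. Of the 13 lower names, the most counts were in miR-1228-3p, miR-1343-3p, miR-1292-3p, miR-6813-3p and miR-4459. Only miR-4322 and miR-1469 of these 36 names also lay outside the range of the 5 pairs before surgery.

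The names taken next from these counts were chosen after their values were seen. miR-15b-5p, a relative of miR-16 that restrains cyclins, went from −0.21 to 1.02 in animal D and from 0.18 to 2.38 in animal E. Animal C before surgery, at 1.56, and animal F after it, at 0.40, overlap with these. miR-660-5p, made from the same X-linked cluster as miR-532 in humans, went from −1.25 to 2.21 in animal D and from −0.55 to 1.05 in animal E, but animal A before surgery stood at 1.96. miR-127-3p, of the imprinted cluster that humans carry on chromosome 14, went from −0.88 to 1.71 and from −0.72 to 4.24. Its mean count was 40.1, and the times overlapped, with animal A before surgery at 1.48 and animal F after it at 0.84. miR-10a-5p, a miRNA of endothelium and of Hox clusters, went from −0.35 to 2.24 and from −1.65 to −0.17. Here animal A before surgery stood at 0.73 and animal F after it at 0.038, so the times overlapped. In the opposite direction, miR-1228-3p went from 0.74 to −1.49 in animal D and from 0.091 to −2.93 in animal E, while its value in animal A before surgery was already −2.18. miR-28-3p, which is found in platelets, went from 2.09 to −0.40 and from 0.95 to −0.060. It overlapped too, with animal C before surgery at 0.0087 and animal F after it at 0.79.

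**Figure D4:**
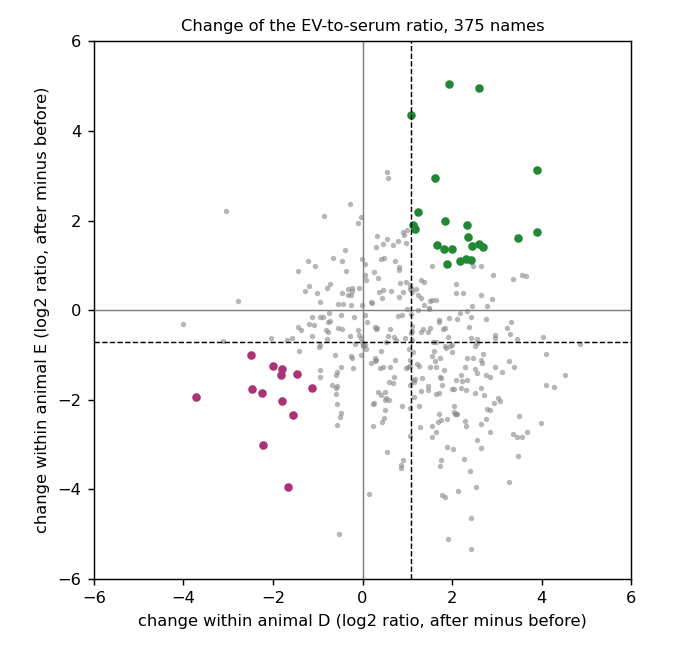
Change of the log2 EV-to-serum ratio within animal D (x axis) and within animal E (y axis), after minus before surgery, for 375 names; dashed lines are the medians (1.08 and −0.71). Green points are the 23 names above 1 in both animals and purple points the 13 below −1 in both, while 225 names have opposite signs.

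Members of the lists that follow overlapped between the times unless said otherwise, and their log2 ratios are given in the order of animals A to E before and D to F after surgery. The red blood cell miRNAs had a higher mean ratio after surgery for 8 of 10 measured members, and 0 passed the test. The median difference over the list was 0.68 on the log2 scale, beside −0.14 over all 375 names. Under TMM factors and under centring all 10 were higher, under RLE factors 9 were, and under the other scalings 8 were. Within animal D 6 of the 10 were higher and within animal E 9, beside 280 and 117 of all 375 names. Centred on each pair's median, 4 were higher within animal D and 10 within animal E, beside 182 and 202 of all names. No member lay outside its range before surgery, beside 1.33% of all names in each direction. The list as a whole took 16.1, 21.2, 58.2, 25.7 and 19.5% of EV counts and 36.9, 50.9, 68.2, 21.7 and 41.7% of serum counts before surgery, and 21.6, 29.4 and 23.4% and 24.6, 43 and 52% after it. The log2 ratio of these sums was −1.19, −1.27, −0.23, 0.25 and −1.10 before and −0.19, −0.55 and −1.15 after surgery, with overlap, so the sums, which a few abundant members fill, did not separate the times.

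miR-486-5p, a miRNA of red blood cells, had the highest mean share over all libraries, though not the highest share in each. It was more weighted to serum in 4 of 5 pairs before surgery and in all 3 after it. Its log2 ratio was −1.67, −1.86, −0.20, 0.18 and −1.64 before and −0.26, −1.51 and −1.76 after surgery, and averaged −1.04 ± 0.95 (SD, n = 5) before and −1.17 ± 0.80 (n = 3) after surgery. Like it a miRNA of red blood cells, miR-16-5p, which restrains cell division, had log2 ratios of −0.62, −0.029, −0.45, 0.40 and −0.32 before and 0.031, 0.55 and −0.20 after surgery, and animals F and D after surgery lay inside the earlier range. miR-92a-3p, which comes from an oncogenic cluster, was below 0 in all 8 pairs, at −0.56, −1.41, −0.85, −0.21 and −1.15 before and −1.40, −0.61 and −1.19 after surgery. miR-25-3p had ratios of 0.26, −1.37, −0.74, 0.52 and 0.15 before and −0.20, 0.74 and −0.77 after surgery, on both sides of 0 at both times. miR-451a, which red blood cell precursors make without Dicer, went the furthest of these toward vesicles, at 0.015, −2.59, 1.26, −0.13 and 0.13 before and 2.55, 1.53 and 0.037 after surgery. Animals D and E after surgery exceeded all 5 values before, and animal F was in the middle of them. Its EV share was 0.169, 0.179, 4.51, 1.08 and 0.274% before and 0.852, 0.571 and 0.235% after surgery, and its serum share 0.168, 1.07, 1.88, 1.18 and 0.251% and 0.145, 0.198 and 0.229%. The fitted log2 change of its ratio was 1.58 ± 0.87 (SE; edgeR, unadjusted p = 0.0897).

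The liver miRNAs had a higher mean ratio after surgery for 5 of 8 members, with a median difference of 0.21 and 0 past the test. miR-122-5p, which hepatocytes make in great excess over other miRNAs, ranged more widely than any other named liver miRNA, with log2 ratios of 0.14, −1.45, −0.16, 0.14 and 4.68 in animals A, B, C, D and E before surgery and 2.14, 3.89 and −3.22 in animals D, E and F after it. Its share was larger in EVs than in serum in animal E at both times, nearly equal in animal D before surgery and larger in EVs after it, and larger in serum in animal F after surgery. Its EV share was 0.535, 2.25, 0.0899, 1.3 and 7.97% before and 13.3, 18.4 and 0.641% after surgery, and its serum share 0.484, 6.15, 0.1, 1.18 and 0.312% and 3.02, 1.24 and 5.96%. The ratio averaged 0.67 ± 2.33 (SD, n = 5) before and 0.94 ± 3.70 (n = 3) after surgery. Its fitted log2 change, 1.07 ± 1.73 (SE; edgeR, unadjusted p = 0.544), covers both directions within its error, and over the alternatives it ran from −0.91 to 2.64.

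miR-192-5p, shared by liver, gut and kidney, had log2 ratios of 0.27, 0.61, 0.64, 0.48 and 2.01 before and 2.37, −0.43 and −0.98 after surgery. It moved by 1.89 in animal D and by −2.44 in animal E, and animals E and F after surgery lay below all 5 earlier values while animal D lay above them. miR-101-3p, which represses the histone methyltransferase EZH2, ranged from −0.50 to 1.31 before surgery and was 1.10, 1.82 and −0.18 after it. It was higher within both animals sampled at both times, by 1.17 and 1.82. miR-148a-3p, described above, was the one of 8 liver members outside its earlier range, beside 1.33% of all 375 names in each direction. Centred on each pair's median, miR-148a-3p overlapped between the times.

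**Figure D5:**
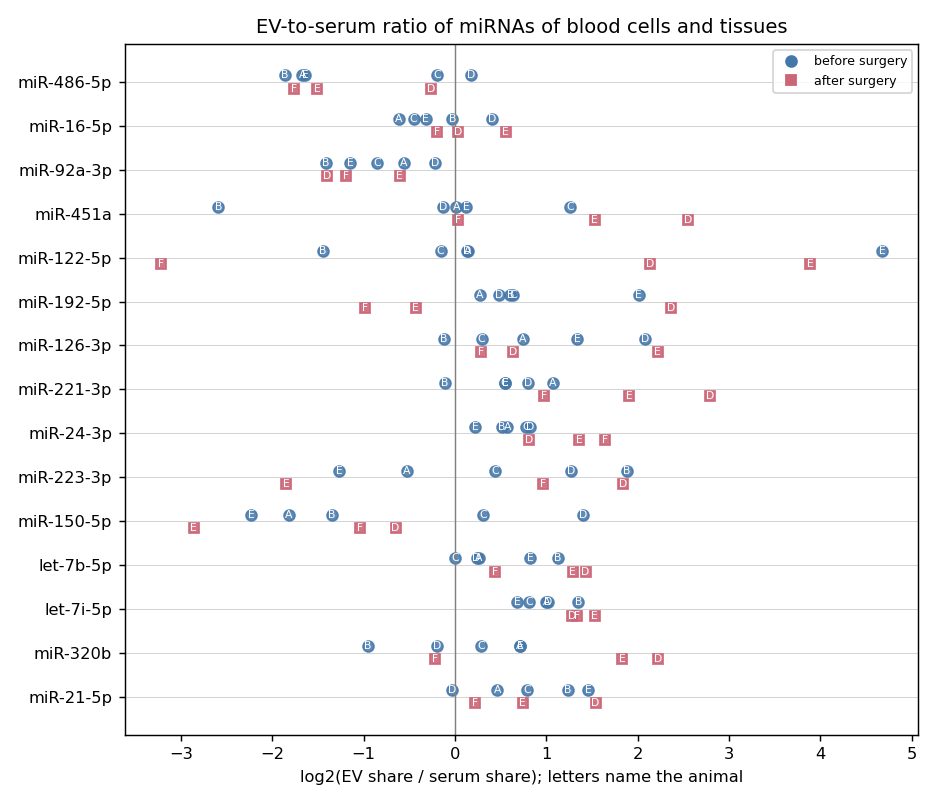
Log2 ratio of EV share to serum share (x axis) for 15 miRNAs of blood cells and tissues (y axis), 5 pairs before (blue circles) and 3 after surgery (red squares), with letters for animals. miR-486-5p lies at or below 0.18 in every pair, miR-122-5p spans −3.22 to 4.68, and each of the 15 overlaps between the times.

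Endothelial miRNAs were higher for 4 of 7 members, with a median difference of 0.18 and 0 past the test. miR-126-3p, the best known miRNA of endothelium, stood at 0.74, −0.12, 0.29, 2.08 and 1.34 before and 0.63, 2.22 and 0.29 after surgery, fully inside the earlier range but for animal E. It moved by −1.44 in animal D and by 0.88 in animal E. The opposite strand of its hairpin, miR-126-5p, had log2 ratios of 0.64, 0.92, −0.38, 1.18 and 1.75 before and −1.61, 1.96 and −0.97 after surgery, with animals D and F after surgery below all 5 earlier values and animal E above them. miR-125b-5p, a relative of the worm gene lin-4, had ratios of 0.41, −1.01, 0.26, 0.80 and 0.72 before and 0.21, −1.03 and −1.51 after surgery, lower within both animals sampled at both times.

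Platelet miRNAs were higher for 5 of 7 members, with a median difference of 0.29 and 0 past the test. Besides miR-24-3p, the most abundant were miR-191-5p, miR-199a-3p and miR-197-3p. miR-191-5p had log2 ratios of −0.79, −1.93, −1.07, 0.89 and −1.50 before and 0.13, −1.57 and −0.26 after surgery, and was more weighted to serum in every pair but those of animal D. miR-199a-3p stood at 0.86, −0.053, 0.57, 0.23 and 2.21 before and 1.72, 2.24 and −0.33 after surgery. miR-197-3p had log2 ratios of 0.79, 1.82, 0.19, −0.62 and 0.27 before and −0.94, 0.61 and 2.26 after surgery. In these 3 the groups overlapped, and animals after surgery lay on both sides of the earlier mean.

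Myeloid miRNAs were higher for 2 of 6 members with library totals, a median difference of −0.15, and for 3 of 6 with TMM factors, RLE factors or centring, where the median turned above 0. miR-223-3p, a regulator of neutrophil maturation, had ratios of −0.53, 1.88, 0.44, 1.27 and −1.27 before and 1.84, −1.85 and 0.97 after surgery. Animal E was lowest and animal D among the 2 highest at both times. miR-142-3p, found across blood cells, was also lowest in animal E and highest in animal D at both times, with log2 ratios of −0.62, −0.21, 0.85, 1.72 and −1.32 before and 1.17, −1.73 and 0.023 after surgery. miR-142-5p had log2 ratios of −0.29, −0.10, 0.93, 0.23 and −0.95 before and 0.28, 0.065 and 1.40 after surgery. miR-145-5p, which is better known from smooth muscle, stood at 0.48, −0.43, −0.52, 1.30 and 0.48 before and 1.82, −0.22 and −0.66 after surgery.

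Lymphoid miRNAs were higher for 3 of 6 members, or for 4 of 6 with TMM factors, RLE factors or centring, with a median difference of 0.13 and 0 past the test. miR-150-5p, which marks mature lymphocytes and restrains MYB, had log2 ratios of −1.82, −1.35, 0.31, 1.40 and −2.23 before and −0.65, −2.86 and −1.04 after surgery. Its change was −2.05 within animal D and −0.63 within animal E, and animal E was lowest at both times. miR-342-3p had ratios of −1.35, −0.85, −0.48, 0.99 and −1.97 before and 0.22, −2.24 and −0.42 after surgery, also lowest in animal E at both times. miR-29a-3p, which represses collagens and is listed under fibrosis too, had log2 ratios of 0.54, −0.48, 0.044, −0.27 and 0.48 before and 2.18, 0.57 and 0.15 after surgery, with animals D and E after surgery above the earlier range. miR-181a-5p, which tunes T cell receptor signalling, stood at 0.27, 1.55, 0.44, −0.42 and 0.025 before and 0.95, 0.14 and 1.04 after surgery.

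The let-7 family, whose members share a seed and restrain growth genes such as HMGA2, was higher for 7 of 9 members, with a median difference of 0.37 and 0 past the test. Without the most abundant name in the totals, or with totals over the 375 names, it was 6 of 9. Reads of its near-identical members can be split between names, so single members are uncertain. let-7b-5p had log2 ratios of 0.26, 1.13, 0.0011, 0.24 and 0.82 before and 1.43, 1.29 and 0.43 after surgery, and let-7i-5p of 1.0, 1.35, 0.81, 1.02 and 0.69 before and 1.28, 1.53 and 1.34 after surgery. let-7i-5p was above 0 in all 8 pairs, and only animal B before surgery kept its groups from separating. let-7a-5p had ratios of −0.36, 1.93, 0.17, 0.83 and 0.094 before and 0.50, 0.56 and 0.58 after surgery, with 3 nearly equal values after surgery, and let-7f-5p of −0.26, 1.27, 0.34, 0.88 and 0.18 before and 0.056, −0.25 and 0.029 after surgery.

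The miR-320 family, whose precursor bypasses Drosha in mice, was higher for 4 of 5 members under every scaling tried, with a median difference of 0.91 and 0 past the test. miR-320a had log2 ratios of 0.31, −0.90, −0.023, 0.48 and 0.38 before and 1.56, 0.30 and 0.0038 after surgery. miR-320b stood at 0.71, −0.95, 0.28, −0.20 and 0.72 before and 2.22, 1.83 and −0.21 after surgery. miR-320c had log2 ratios of 1.05, −0.022, 0.41, 0.57 and 1.02 before and 2.89, 2.16 and 0.11 after surgery, and miR-320d of 1.63, 0.56, 1.27, −0.52 and 1.0 before and 2.82, 1.70 and 0.59 after surgery. In all 4, animal D after surgery lay above the 5 earlier values, and animal F lay within them. The remaining member, miR-320e, named after its values were seen, went the other way. It had log2 ratios of 0.55, 3.12, 1.38, 2.06 and 1.71 before and 0.98, 1.38 and 1.35 after surgery, with −1.09 within animal D and −0.34 within animal E. These members differ by few bases and may share reads, so they are not independent of each other.

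The miR-17 to miR-92 clusters, known drivers of cell proliferation, were higher for 6 of 9 members, with a median difference of 0.25 and 0 past the test. miR-93-5p had ratios of 0.89, −0.42, −0.61, 0.22 and 0.35 before and −0.24, 1.44 and 0.44 after surgery, and miR-20a-5p of 0.22, 1.71, 0.63, 0.10 and 0.70 before and 0.56, 1.15 and 1.04 after surgery. miR-20a-5p was above 0 in all 8 pairs and its change was alike within animal D (0.46) and animal E (0.45). miR-92a-3p, from the same cluster, was below 0 in all 8.

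Fibrosis miRNAs were higher for 2 of 6 members with library totals, a median difference of −0.044, and for 4 of 6 with TMM factors, RLE factors or centring, where the median was above 0. miR-21-5p, which rises in fibrotic heart and liver in mice and humans, had log2 ratios of 0.46, 1.24, 0.79, −0.033 and 1.46 before and 1.54, 0.74 and 0.23 after surgery, with mean 0.78 ± 0.60 (SD, n = 5) before and 0.84 ± 0.66 (n = 3) after surgery. It moved by 1.57 in animal D and by −0.72 in animal E, and its fitted log2 change was 0.049 ± 0.60 (SE; edgeR, unadjusted p = 0.937). miR-29c-3p stood at 0.55, 0.77, 0.24, −0.96 and 2.01 before and 1.71, 0.82 and −1.16 after surgery, also higher in animal D and lower in animal E. miR-34a-5p, a target of p53, had log2 ratios of 2.50, 0.41, 2.28, −0.92 and 2.08 before and 0.71, 0.81 and 1.42 after surgery, with the values after surgery close together inside a wide earlier range.

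Epithelial miRNAs were higher for 1 of 5 members, with a median difference of −0.62 and 0 past the test, and for 2 of 5 with TMM factors, RLE factors or centring. miR-203a-3p, a miRNA of skin, had ratios of 3.62, 2.96, 2.41, −4.46 and 3.43 before and −1.23, 3.02 and 1.13 after surgery. Animal D stood below 0 at both times and the others above 2 before surgery. miR-141-3p, of the miR-200 family that keeps cells epithelial, had log2 ratios of 2.28, 1.75, 1.16, −1.03 and 3.33 before and 0.71, −0.15 and 0.23 after surgery. miR-375, of pancreatic islets and gut, stood at 0.72, 1.20, −0.27, 0.17 and 1.19 before and 2.38, −0.40 and −0.22 after surgery, and miR-205-5p at 0.62, −2.48, −0.30, −0.65 and 0.31 before and 1.27, 0.12 and −0.70 after surgery. All 5 members were higher within animal D and all 5 lower within animal E, beside 280 and 117 of 375 names higher.

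The 14q32 cluster, the large imprinted miRNA cluster of the DLK1 and MEG3 locus in humans, was higher for 1 of 6 members, or for 2 of 6 with TMM factors, RLE factors or centring, with a median difference of −0.55 and 0 past the test. All 6 were higher within animal D and 5 of 6 lower within animal E, again beside the general direction of each animal. miR-409-3p had log2 ratios of 0.71, 1.03, 0.31, −0.81 and 3.41 before and 1.60, −1.24 and −0.48 after surgery, and moved by 2.42 and −4.64 in animals D and E. Its name stands on 2 lines of the table, and the first was used. miR-370-3p had ratios of 2.10, 3.48, 1.20, −2.0 and 1.53 before and 0.34, −0.027 and 1.77 after surgery, with all 3 later values inside the earlier range. miR-382-5p had log2 ratios of 1.61, 0.94, 0.30, −0.95 and 3.64 before and 1.34, 1.17 and −0.86 after surgery, and miR-432-5p of 1.15, 1.83, −0.26, −0.50 and 2.76 before and 0.51, 1.5 and −0.63 after surgery. Of the heart and skeletal muscle miRNAs, only miR-208b-3p, from an intron of the slow myosin gene MYH7, was above 0 in every library. Its log2 ratios were 2.38, 2.75, 1.10, −2.43 and 1.58 before and −0.0036, 1.42 and 1.87 after surgery, with a mean count of 30.1.

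Names open to matches from pieces of other abundant RNAs were lower for 9 of 11 members, with a median difference of −0.62 and 0 past the test, and for 8 of 11 with TMM factors, RLE factors or centring. They were listed because human entries of this kind resemble ribosomal and other small RNAs, as miR-1246 resembles the U2 small nuclear RNA. miR-6090 stood at 0.24, −0.67, 1.19, −0.64 and 2.38 before and −1.60, 1.56 and −1.61 after surgery, and miR-663a at −0.44, 1.56, 0.69, −0.51 and −0.75 before and −1.45, −0.56 and 0.93 after surgery. miR-4488 had log2 ratios of −4.74, −0.14, 1.70, 0.66 and −5.62 before and −2.47, −6.32 and 0.65 after surgery, with animal A before surgery and animal E at both times far below 0. miR-1246 had ratios of 1.39, 2.40, 1.14, −0.73 and 3.48 before and 2.72, 0.64 and −0.60 after surgery, higher within animal D and lower within animal E. The list took 0.966% to 3.47% of EV counts and 0.348% to 2.18% of serum counts before surgery, and 1.25% to 3.31% and 1.70% to 9.67% after it. The highest serum value was that of animal D after surgery.

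Of the 10 most abundant names, the remaining 4 also overlapped between the times. miR-1915-3p had log2 ratios of −0.36, 1.94, 1.44, −0.24 and −1.59 before and −0.70, −1.22 and 2.11 after surgery. miR-423-5p, which has been studied in blood of patients with heart failure, stood at −1.04, 0.18, 0.43, 1.13 and −1.04 before and 1.75, −0.62 and 0.42 after surgery, higher within animal D (0.62) and animal E (0.42). miR-6887-3p had log2 ratios of −1.12, −1.67, −0.42, 0.16 and −1.11 before and −0.96, −1.69 and −0.81 after surgery, lower within both. miR-6743-5p had ratios of −1.88, −2.54, −1.17, 0.17 and −3.71 before and −0.70, −1.62 and 0.087 after surgery, with a fitted log2 change of 1.09 ± 0.83 (SE; edgeR, unadjusted p = 0.208).

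The direction of the mean difference varied with the number of the name, which follows the order of registration. Of 187 names of let-7 and of miR-1 to miR-1000, the older and mostly conserved entries, 101 had a higher mean ratio after surgery, with a median difference of 0.15. Of 120 names numbered miR-4001 and above, 35 were higher, with a median difference of −0.47, and of 55 names in between 16 were higher, with −0.38. Centred on each pair's median, 120 of 187, 51 of 120 and 24 of 55 were higher. Within animal D the median change hardly differed, at 1.08 for the older names, 0.984 for those in between and 1.09 from miR-4001 on. Within animal E it was −0.408, −1.44 and −1.07, in the same order. Before surgery, the median ratio of the older names was 0.72, 1.09, 0.66, 0.016 and 1.02 in animals A to E, and that of the names from miR-4001 on was 2.14, 3.0, 1.72, −1.17 and 1.98. After surgery the values were 0.95, 0.76 and 0.79 for the older names and −0.21, 0.71 and 2.16 for the later ones, in animals D, E and F. The later names thus varied more between animals, and their median share in animal D was larger in serum at both times.

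Of the 13 piRNA names, 8 had a higher mean ratio after surgery, with a median difference of 0.58. A sheep miRNA gene of the same name was found in RefSeq for 54 of the 375 names. The RefSeq annotation used listed 106 sheep miRNA genes in all, so a name without a match may still be made in sheep. Of these 54, 30 were higher, with a median difference of 0.19, and of the other 321 names 130 were higher, with −0.18, which centring turned to 0.067 with 171 higher. Among the third of names with the most counts 65 of 125 were higher, and among the third with the fewest 45 of 125. All of these are counts without a test, since names are not replicates.

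Of the 3 pairs that lie in the same sets of shared zeros, animal B was sampled before surgery and animals E and F after it. Their median ratios were 2.04 before and 0.65 and 1.42 after surgery. Within these 3 pairs, piR_004987 stood at −1.36 before and 0.82 to 1.33 after surgery, miR-27b-3p at 0.83 before and 2.21 to 2.52 after, and miR-4322 at 1.89 before and −1.80 to −1.56 after. The choice of these names fixes their direction here, so that these values show the size alone.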

How the data were processed

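The authors deposited 1 table of unnormalised read counts, with a line for each miRNA or piRNA name and a column for each library (QIAseq kit). The submitters' processing notes name the human build hg19 and bcl2fastq 2.20.0.422. On the aligner, the counter, filters and molecular identifiers the sources used here give nothing. Counts were matched to human names, so near-identical family members can share reads.

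Groups came from the sample titles. Shares were counts divided by library totals, and no pseudocount was needed for names above 0 in every library. Each name was tested with edgeR 4.0.16 under R 4.3.3 (quasi-likelihood test, library totals, a term per letter and time, Benjamini-Hochberg adjustment). The design was also run on simulated counts, and the results of that run are not given here. DESeq2 1.42.0 and limma 3.58.1 were alternatives, with other scalings, filters, thinning and pairs left out. Exact permutation tests used scipy 1.17.1. EV and serum of 1 letter and time were read as 1 animal, which the labels do not state. Their deviations from the group means correlated at −0.30 to 0.68 over names, and above 0.1 in 3 of 8 pairs.

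Named miRNAs were the 10 with the highest mean share, up to 10 per direction outside the earlier range with a mean count of 50 or more and the same sign within D and E, the 5 smallest p per direction, and up to 4 per list. The names and the 14 lists were chosen with earlier results of these data known. No sequence is shown.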

Additional observations from a re-analysis of the deposited data

Results flagged for a closer look

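Among 72 sets of 5 ratios before surgery, 8 held 1 pair far from the other 4, by Dixon's criterion, which chance alone meets in about 1 in 20. The log2 EV-to-serum ratio of miR-122-5p was 4.68 in animal E, with the next value at 0.14, and that of miR-192-5p, another liver miRNA, was 2.01 in the same animal, next to 0.64. Animal B stood apart for miR-140-3p, at −4.64 next to −1.10, and for miR-23a-3p, at −1.17 next to 0.28. Animal C stood apart for miR-6756-3p, at 1.53 next to 0.26, and for miR-101-3p, at 1.31. Animal A stood apart for piR_017724, at −4.05 next to −1.43, and animal D for miR-203a-3p, at −4.46 next to 2.41.

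Outside the 375 names, miR-6130 had 12, 5 and 19 counts in serum of animals D, E and F after surgery, whereas the 5 earlier serum libraries list it at 0. In EVs it had 64, 7, 14, 0 and 4 counts before and 0, 17 and 12 after surgery. No name showed this pattern in EVs.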

How the results depend on the processing

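No alternative run called any name. The difference of the median ratio turned to 0.139 with the replicate block by animal, and without 1 pair it ran from −0.673 to −0.00834. Against −0.244 in the main run, this difference was −0.00784 on libraries thinned to the lowest total and −0.00211 under TMM factors. For names with a mean count of 50 or more it was −0.0657. Its size thus depended on depth, scaling and filter. The difference of the SD over names, near 0, turned to 0.0348 for names with a mean count of 50 or more, 0.0772 on thinned libraries and 0.0422 without both pairs of animal D, and ran from −0.117 to 0.115 without 1 pair. The difference of Spearman's correlation turned to 0.073 with the replicate block by animal and ran from −0.0808 to 0.0424 without 1 pair. The cause of these turns was not tested. With no replicate block, edgeR marked 5 names at an unadjusted p under 0.05, and with the block by animal 4. Names past 1 in both animals numbered 23 on thinned libraries, where fewer names were above 0. Names outside the earlier range numbered 12 to 33 without 1 pair and 53 without both pairs of animal D, which leaves fewer pairs to separate. This last setting, and all alternatives for that count, were chosen after seeing the data. Of 69 names singled out, none of them called, 14 had the other sign in the pairs that share sets of zeros, 12 with the block by animal, 11 without animal E after surgery, 10 without animal D after it, 8 under TMM factors and 7 under RLE factors, and 0 to 9 under each other setting. With 3 pairs after surgery, a change of 1 on the log2 scale lies within the median SE of 1.15.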
